A study of Mus musculus with 24 samples.

Results

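The mature products of 2 mouse microRNA (miRNA) precursors, miR-185 and miR-674, were followed through 24 liver libraries. They are 4 of the 1908 mature miRNAs in the deposited count table. They were chosen by the measured level of the main strand of each precursor, mmu-miR-185-5p and mmu-miR-674-3p, which was lower in AM608 libraries than in both other groups. Levels in AM608 set against AM132 or RCD are therefore given as a description without a test. The opposite strands, mmu-miR-185-3p and mmu-miR-674-5p, came in with their precursors. All 4 passed the filter on low counts, which left 421 miRNAs.

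Each group held 8 libraries of C57Bl/6J liver. For AM132, mice were fattened on a high fat diet for 11 weeks and injected with a 16-mer complementary to miR-132. For AM608, mice fattened in the same way were injected with a 15-mer complementary to miR-608, a primate miRNA used as the control target. Both oligonucleotides were protected by locked nucleic acids, which are nucleotides with a bridged sugar that bind RNA tightly. Both were given intravenously at 3.3 mg/kg on 3 consecutive days, with livers taken 7 days after treatment. RCD libraries came from age-matched lean mice on regular chow, and no injection of these mice is described. No group of obese mice without an oligonucleotide was analysed here, so an effect of the AM132 oligonucleotide and one of the AM608 oligonucleotide cannot be told apart in AM132 against AM608. Diet, injection and the AM608 oligonucleotide cannot be told apart in AM608 against RCD. In AM132 against RCD, diet, injection and the AM132 oligonucleotide cannot be told apart.

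A miRNA hairpin is released from its primary transcript by Drosha with its partner Dgcr8 and is cut by Dicer into a short duplex. One strand of the duplex is loaded into an Argonaute protein and directs it to messenger RNAs that pair with the seed, bases 2 to 8 from the 5′ end. The other strand is mostly degraded, so that the 2 arms of a precursor usually differ widely in abundance. miR-185-5p has been reported to lower SREBP-2, the transcription factor of cholesterol synthesis, and SR-BI, the receptor for uptake of cholesterol from high-density lipoprotein. miR-674 is known from rodents and has been studied far less.

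The sequences below show how the arms differ and what each seed is, with the seed in capitals. They are those of RefSeq on GRCm38.p6, which holds 3 of the 4 arms.
miR-185-3p: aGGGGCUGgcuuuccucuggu
miR-674-5p: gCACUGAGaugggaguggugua
miR-674-3p: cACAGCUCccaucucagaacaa
The Mir674 hairpin of 100 bases holds both of its arms, here in capitals.
Mir674: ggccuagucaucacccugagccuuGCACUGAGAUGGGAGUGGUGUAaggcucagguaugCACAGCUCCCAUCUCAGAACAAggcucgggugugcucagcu

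The longest unbroken Watson-Crick run between the arms of miR-674 is 12 bases, positions 4 to 15 of miR-674-5p with positions 6 to 17 of miR-674-3p. No other mature mouse miRNA of the table of sequences has the seed of miR-674-3p. miR-674-5p shares its seed with miR-3473d and miR-1947-3p, and miR-185-3p with miR-7048-5p. These seed sharers were scarce in the liver libraries, with 87 counts of miR-3473d, 4 of miR-1947-3p and 0 of miR-7048-5p over all 24, and none passed the filter.

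In GRCm38, Mir185 lies on chromosome 16 (18327401 to 18327465, minus strand) within an intron of Tango2, a protein-coding gene of the same strand (18300825 to 18348103). Dgcr8, which encodes the Drosha partner, lies 38155 bases away on the same strand. Mir674 lies on chromosome 2 (117185127 to 117185226, plus strand) between genes, 2848 bases past the end of Spred1, which encodes an inhibitor of Ras signalling and runs on the same strand.

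Per library, miRNA counts summed to between 5926983 and 8734721 (AM132), 6855571 and 8532049 (AM608), and 5689143 and 8380591 (RCD). The liver identity was checked on 4 hepatocyte miRNAs (miR-122-5p, miR-122-3p, miR-192-5p and miR-194-5p), all counted in every group. miR-132-3p, the target of AM132, had 0 counts in the 8 AM132 libraries together, against 1584 in AM608 and 1172 in RCD. RCD library 3 stood apart: its sum over 5 neuronal marker miRNAs was 858 CPM (counts relative to the scaled library size), where the median RCD library had 40.8 CPM. It also had the highest RCD sums of the leukocyte, erythroid, mesenchymal, endothelial and muscle lists.

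mmu-miR-185-5p was the more abundant main strand and ranked 108 of the 421 tested miRNAs by mean CPM. Its level was lowest 182.6, median 218.6 and highest 280.3 CPM in AM132. In AM608 it was lowest 63.0, median 76.0 and highest 114.7 CPM, and in RCD lowest 135.1, median 165.1 and highest 192.7 CPM. Every AM608 library lay below every library of both other groups, while AM132 and RCD overlapped, with 6 of 8 AM132 libraries above the highest RCD library. The means of AM132 and RCD, next to each other in the order of levels, differed by more than the SD of either group. Raw counts behind these values ran between 992 and 1917 (AM132), 481 and 905 (AM608), and 810 and 1340 (RCD).

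mmu-miR-674-3p, ranked 129, showed the same order of groups. It was lowest 122.4, median 143.0 and highest 155.8 CPM in AM132. In AM608 it was lowest 47.9, median 58.7 and highest 62.9 CPM, and in RCD lowest 78.7, median 103.8 and highest 183.9 CPM. Again no AM608 library reached any library of the other groups. The 8 AM132 libraries lay inside the range of the RCD libraries, of which library 3 was the highest, and the 2 means differed by less than the SD of RCD.

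**Figure D1:**
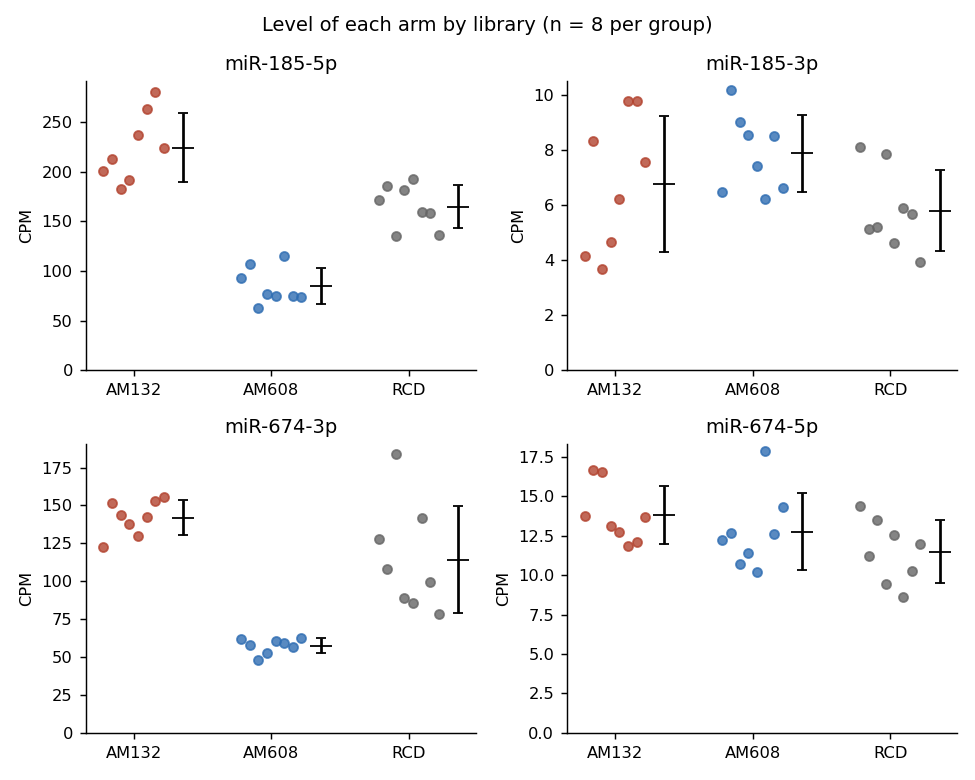
Level in CPM of the 4 arms in each library of AM132, AM608 and RCD (8 points a group; black bars are mean ± SD). miR-185-5p and miR-674-3p are lower in all 8 AM608 libraries than in any other library, while the groups overlap for miR-185-3p and miR-674-5p.

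In AM132, miR-185-5p averaged 224.1 ± 34.5 CPM, against 84.7 ± 18.1 CPM in AM608 (SD, n = 8 each), which is 2.64-fold (log2 fold change 1.40, SE 0.12). miR-674-3p averaged 142.0 ± 11.7 CPM in AM132 and 57.5 ± 5.08 CPM in AM608 (SD, n = 8 each), which is 2.47-fold (log2 fold change 1.30, SE 0.14). These are among the values that chose the members. In this comparison edgeR called 4.04% of all tested miRNAs as higher in AM132, and for 1.66% all AM132 libraries lay above all AM608 libraries.

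In AM608 against RCD, miR-185-5p stood at 0.514-fold, with 84.7 ± 18.1 CPM in AM608 and 164.9 ± 21.8 CPM in RCD (SD, n = 8 each; log2 fold change −0.96, SE 0.12). miR-674-3p stood at 0.503-fold, with 57.5 ± 5.08 CPM in AM608 and 114.3 ± 35.4 CPM in RCD (SD, n = 8 each; log2 fold change −0.99, SE 0.13). Here 15.2% of all tested miRNAs were called as lower in AM608 by edgeR, and 5.23% had all AM608 libraries below all RCD libraries. Without any single library, the log2 fold change in AM608 against RCD ran from −1.02 to −0.89 for miR-185-5p and from −1.04 to −0.86 for miR-674-3p.

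The opposite strands had another order of levels. mmu-miR-185-3p, the passenger strand of its precursor, was lowest 3.68, median 6.90 and highest 9.80 CPM in AM132. It was lowest 6.21, median 7.99 and highest 10.2 CPM in AM608, and lowest 3.94, median 5.45 and highest 8.11 CPM in RCD. Its highest group mean was that of AM608, the group in which its partner was lowest, and all 3 groups overlapped. Its means of 6.78 ± 2.46 CPM in AM132, 7.89 ± 1.42 CPM in AM608 and 5.81 ± 1.48 CPM in RCD (SD, n = 8 each) differed between neighbours in the order of levels by less than the larger SD. The means of AM608 and RCD, the ends of that order, differed by more than the SD of either group. miR-185-3p lay above the highest RCD library in 4 AM608 libraries. The counts behind it were low, between 20 and 67 (AM132), 46 and 82 (AM608), and 27 and 55 (RCD).

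mmu-miR-674-5p was lowest 11.9, median 13.4 and highest 16.7 CPM in AM132. It was lowest 10.2, median 12.4 and highest 17.9 CPM in AM608, and lowest 8.64, median 11.6 and highest 14.4 CPM in RCD. Its group means of 13.8 ± 1.86 CPM in AM132, 12.8 ± 2.43 CPM in AM608 and 11.5 ± 1.99 CPM in RCD (SD, n = 8 each) lay within 1 SD of their neighbours, and the ranges overlapped. The means of AM132 and RCD, the ends of the order, differed by more than the SD of either group.

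In AM132 against AM608, the log2 fold change was −0.22 (SE 0.20) for miR-185-3p and 0.11 (SE 0.13) for miR-674-5p, and that of miR-674-5p turned to −0.14 with library totals in place of the trimmed mean of M values (TMM). In AM608 against RCD, it was 0.44 (SE 0.20) for miR-185-3p and 0.15 (SE 0.13) for miR-674-5p. Neither opposite strand was therefore lower in AM608 than in RCD by its fitted value. In AM132 against AM608, library totals moved the median of all tested miRNAs by −0.25. miR-185-5p then stood at 1.16 and miR-674-3p at 1.06.

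The ratio of the main to the other arm compares both within a library and needs no scaling between libraries. For miR-185 the ratio of counts was lowest 25.3, median 33.5 and highest 48.4 in AM132. It was lowest 6.93, median 10.2 and highest 18.3 in AM608, and lowest 20.9, median 27.1 and highest 41.0 in RCD. For miR-674 it was lowest 8.61, median 10.3 and highest 12.5 in AM132, lowest 3.33, median 4.52 and highest 5.88 in AM608, and lowest 6.55, median 9.46 and highest 16.2 in RCD. For both precursors every AM608 library had a smaller ratio than every library of AM132 and RCD. The opposite strand made up 2.94% of the counts of miR-185 in AM132, 8.55% in AM608 and 3.42% in RCD. For miR-674 it made up 8.80% in AM132, 18.1% in AM608 and 9.08% in RCD.

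**Figure D2:**
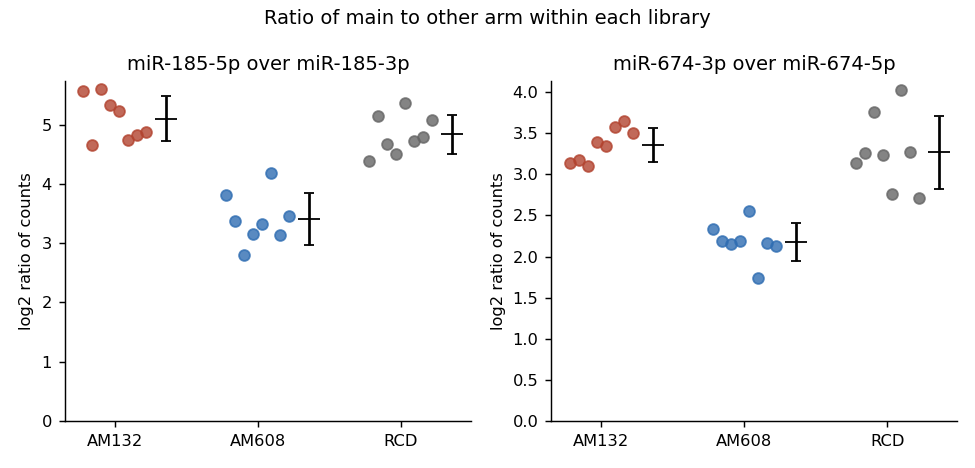
Log2 ratio of the counts of the main arm to those of the other arm in each library of AM132, AM608 and RCD (8 points a group; black bars are mean ± SD). In AM608 the ratio is smaller in every library than in any library of the other groups, with means of 3.41 for miR-185 and 2.18 for miR-674.

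On the log2 scale the arm ratio of miR-185 averaged 5.10 ± 0.38 in AM132, 3.41 ± 0.43 in AM608 and 4.84 ± 0.33 in RCD (SD, n = 8 each). That of miR-674 averaged 3.36 ± 0.20 in AM132, 2.18 ± 0.23 in AM608 and 3.27 ± 0.45 in RCD (SD, n = 8 each). The values in AM608 rest on the counts that chose the members and were not tested. AM132 and RCD were tested: the arm ratio of miR-185 differed by 0.27 (SE 0.18; two-sided exact permutation p = 0.151, adjusted p = 0.303 over the 2 precursors, n = 8 each), and that of miR-674 by 0.09 (SE 0.17; two-sided exact permutation p = 0.613, adjusted p = 0.613). Neither passed, and in both precursors the AM132 and RCD ranges overlapped.

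Both arms were tested under the same precursor name for 107 precursors. Against these the ratios can be placed as a description made after the values were seen. Precursors whose arms carry different names, as with miR-194-2-3p, were left out. In AM608 against RCD, the difference of log2 arm ratios was −1.43 for miR-185 and −1.09 for miR-674, which ranked 2 and 3 by size among the 107, after miR-200b at 1.80. The median size was 0.198, and the groups did not overlap for 4.67% of the precursors. In AM132 against AM608, the differences of 1.70 and 1.18 ranked 7 and 8, behind miR-132, miR-455, miR-200b, let-7b, miR-582 and miR-139. There the median size was 0.212 and 14% of the precursors did not overlap. In AM132 against RCD, the members ranked 59 and 86, and 10.3% of the precursors did not overlap. The main-arm levels that chose the members enter the ratios in AM608, so high ranks in both AM608 contrasts were favoured by that choice.

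**Figure D3:**
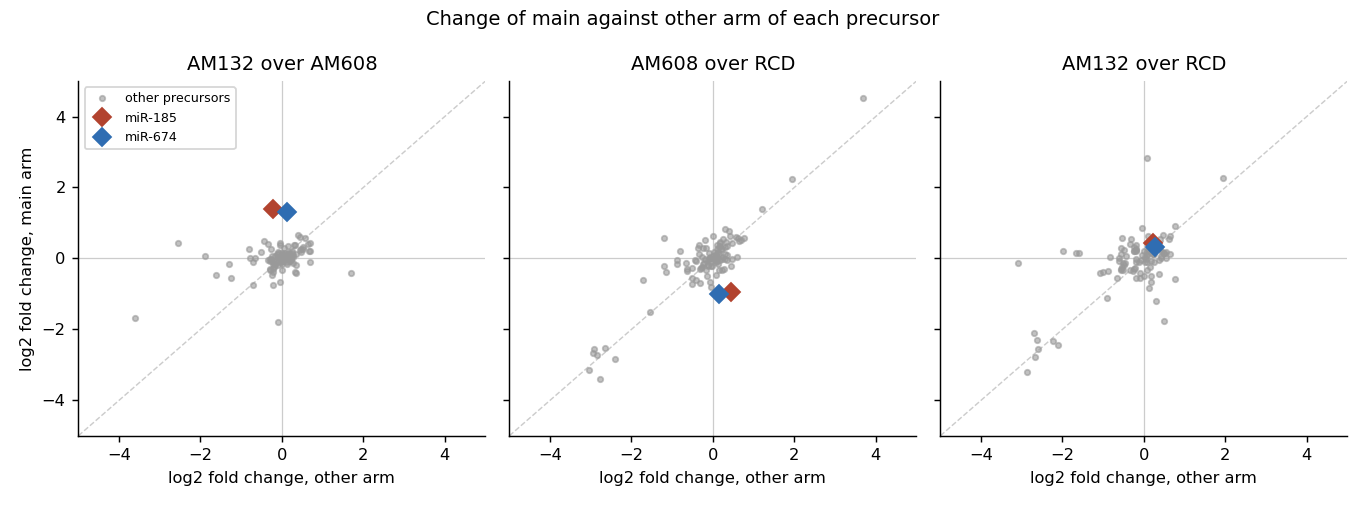
Log2 fold change of the main arm (vertical) against that of the other arm (horizontal) for each of 107 precursors. These had both arms tested under the same precursor name. Panels show AM132 over AM608, AM608 over RCD and AM132 over RCD, and the dashed line marks equal change. miR-132 lies outside the axes, which end at 5, in both AM132 panels. In AM132 over AM608, miR-185 and miR-674 lie above 0 for the main arm, with the other arm at −0.22 and 0.11. In AM608 over RCD they lie below 0 for the main arm, with the other arm at 0.44 and 0.15.

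AM132 against RCD is the contrast that the choice of members did not make, although it used the levels of both groups. There edgeR with all 24 libraries called 1 of the 4 arms, miR-185-5p, as higher in AM132, where 15.4% of all tested miRNAs were called as higher and 18.8% as lower. These are 65 higher and 79 lower, a split that became 27 higher and 105 lower with library totals. miR-185-5p averaged 224.1 ± 34.5 CPM in AM132 and 164.9 ± 21.8 CPM in RCD (SD, n = 8 each), and rose by a log2 fold change of 0.44 (SE 0.12, 95% interval 0.19 to 0.69, edgeR adjusted p = 0.00616). The call was lost with library totals (0.26, edgeR adjusted p = 0.0751), under which the median of all tested miRNAs moved by −0.19 to −0.16. It was kept without any single library, at an edgeR adjusted p of 0.0041 to 0.0232.

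miR-674-3p averaged 142.0 ± 11.7 CPM in AM132 and 114.3 ± 35.4 CPM in RCD (SD, n = 8 each), with a log2 fold change of 0.31 (SE 0.13, 95% interval 0.04 to 0.59) that did not pass (edgeR adjusted p = 0.0693). The RCD libraries spread widely, with a coefficient of variation of 30.9%, against 8.24% in AM132. Without RCD library 3, which had the highest neuronal marker sum, the value was 0.41 (edgeR adjusted p = 0.0049), and without RCD library 6 it was 0.36 (edgeR adjusted p = 0.0418). The part of the marker miRNAs of library 3 in this was not tested.

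Neither opposite strand passed in AM132 against RCD. miR-674-5p had a log2 fold change of 0.26 (SE 0.13, 95% interval −0.00082 to 0.53, edgeR adjusted p = 0.112) and miR-185-3p of 0.22 (SE 0.20, 95% interval −0.20 to 0.64, edgeR adjusted p = 0.41). The intervals of all 4 arms overlap one another.

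**Figure D4:**
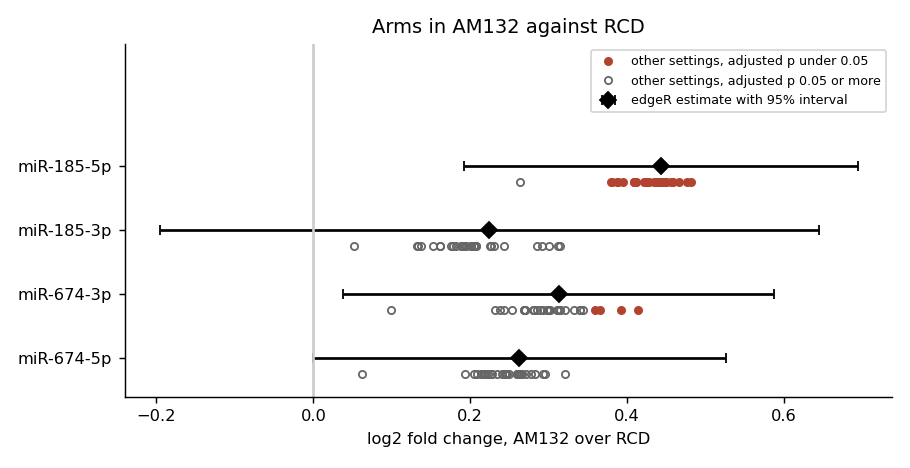
Log2 fold change of each arm in AM132 over RCD with its 95% interval from edgeR (black diamonds), and below it the value under each other processing setting, filled where the adjusted p was under 0.05. All point estimates lie above 0, and miR-185-5p is called in all settings but 1, library totals, while miR-674-3p is called in 4.

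Within groups no correlation between the main strands passed its test. Between miR-185-5p and miR-674-3p, Pearson's r of log2 CPM was 0.31 in AM132 (exact permutation p = 0.452), 0.48 in AM608 (p = 0.223) and −0.36 in RCD (p = 0.372), with n = 8 libraries each and an adjusted p of 0.670 to 0.678 over the 9 correlations computed. Spearman's rho was 0.29, 0.12 and −0.31 (exact permutation p = 0.501, 0.793 and 0.462; adjusted p = 0.935 each). Without the 2 libraries farthest from the median of miR-185-5p, r was 0.07 in AM132, 0.68 in AM608 and −0.63 in RCD. The libraries fell into separate groups for this pair, so no pooled r is given.

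**Figure D5:**
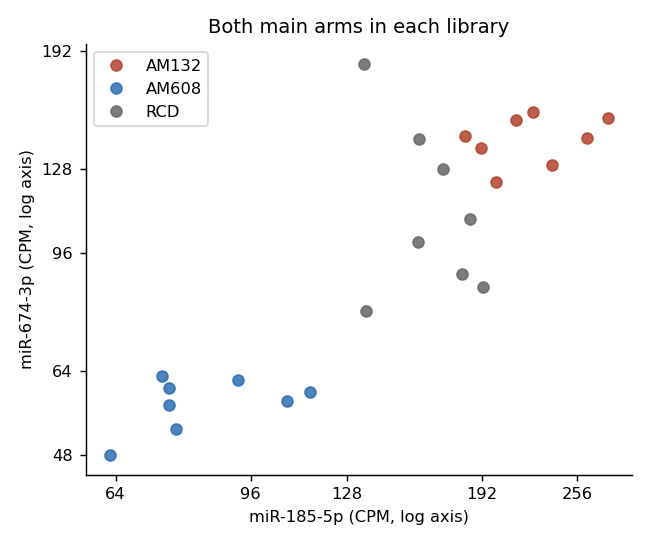
CPM of miR-674-3p against that of miR-185-5p in each of the 24 libraries, both on log axes, coloured by group. The 8 AM608 libraries lie apart at the lower left, and RCD library 3 has the highest miR-674-3p, 183.9 CPM.

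The arms of miR-185 varied together most in AM132, with r = 0.88 (exact permutation p = 0.00598, adjusted p = 0.0538) and rho = 0.88 (exact permutation p = 0.00724, adjusted p = 0.0652), which missed the threshold after adjustment over the 9. Without AM132 libraries 6 and 7, farthest from the median of miR-185-5p, r was 0.77. In AM608 r was −0.22 (exact permutation p = 0.584, adjusted p = 0.703) with rho −0.26 (p = 0.536, adjusted p = 0.935), and −0.68 without libraries 2 and 6. In RCD r was 0.37 (exact permutation p = 0.367, adjusted p = 0.670) with rho 0.05 (p = 0.935, adjusted p = 0.935), and −0.25 without libraries 3 and 8. For the arms of miR-674, r was 0.17 in AM132, 0.44 in AM608 and 0.17 in RCD (exact permutation p = 0.703, 0.274 and 0.679, adjusted p = 0.703, 0.670 and 0.703). Spearman's rho was 0.07, 0.36 and 0.10 (exact permutation p = 0.882, 0.389 and 0.840, adjusted p = 0.935 each). Without the 2 farthest libraries r was 0.11, 0.04 and 0.42. With library totals it was 0.48 in AM132, 0.67 in AM608 and 0.51 in RCD, none of which passed (exact permutation, adjusted p = 0.446, 0.339 and 0.446).

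The miRNAs whose log2 CPM followed miR-185-5p most closely over the 24 libraries, leaving out the members, were miR-194-2-3p (r = 0.75), miR-3535 (0.74), miR-148a-5p (0.73), miR-193a-5p (0.65) and miR-30d-3p (0.65). These r values describe likeness only, since the libraries share their group. With each group's mean subtracted, they were 0.40, 0.32, 0.34, 0.45 and 0.28. With library totals in place of TMM, r with miR-185-5p was 0.22 for miR-193a-5p and 0.28 for miR-30d-3p, and 0.49 to 0.63 for the other three. miR-194-2-3p, the passenger strand of a hepatocyte precursor, averaged 183.9 ± 20.6 CPM in AM132, 113.0 ± 14.5 CPM in AM608 and 147.1 ± 35.2 CPM in RCD (SD, n = 8 each). It followed the order of groups of miR-185-5p over a narrower range, with a log2 fold change of 0.70 in AM132 against AM608 and one of −0.38 in AM608 against RCD. Since these miRNAs were picked for following a main strand, no test of either contrast is given for them.

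For miR-674-3p the closest were miR-3535 (r = 0.70), miR-187-3p (0.62), miR-320-3p (0.61), miR-148a-5p (0.59) and miR-200b-5p (0.59). With group means subtracted, these were 0.19, 0.37, 0.74, −0.13 and −0.06. With library totals r was 0.37 for miR-320-3p and 0.49 to 0.60 for the other four. miR-148a-5p, the passenger strand of the abundant miR-148a-3p, averaged 259.9 ± 32.4 CPM in AM132, 180.7 ± 33.4 CPM in AM608 and 243.7 ± 53.2 CPM in RCD (SD, n = 8 each). Its log2 fold change was 0.52 in AM132 against AM608, and that in AM608 against RCD was −0.43. miR-200b-5p was scarce, at 10.2 ± 6.76 CPM in AM132, 3.09 ± 1.84 CPM in AM608 and 7.26 ± 3.76 CPM in RCD (SD, n = 8 each). Named alike for both main strands were miR-3535 and miR-148a-5p.

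Of the marker sums, those of the hepatocyte and muscle miRNAs were lowest in AM608 by their medians. The 4 hepatocyte miRNAs summed to 338284 to 442932 CPM in AM132, 226894 to 326858 CPM in AM608 and 154143 to 369008 CPM in RCD, with medians of 388188 CPM in AM132, 270082 CPM in AM608 and 316813 CPM in RCD. Their part in the levels of miR-185-5p and miR-674-3p was not tested, and in bulk liver fewer cells of a type and less RNA per cell cannot be told apart. The 4 leukocyte miRNAs found in the table, of 6 listed, overlapped between groups with medians of 5346 CPM in AM132, 4923 CPM in AM608 and 4685 CPM in RCD. The 5 biliary miRNAs had medians of 1167, 1978 and 1318 CPM in AM132, AM608 and RCD, the 5 mesenchymal ones 12026, 14184 and 14450 CPM, the 2 endothelial ones 44982, 43377 and 36051 CPM, and 3 of 4 erythroid ones 546.9, 557.1 and 735.6 CPM. The 5 neuronal miRNAs summed to 11.4 to 29.3 CPM in AM132, 24.6 to 36.9 CPM in AM608 and 15.9 to 858 CPM in RCD, and the 3 muscle ones to 9.24 to 62.1, 7.95 to 37.2 and 17.1 to 331.3 CPM. miR-124-3p, the defining neuronal miRNA, had 0 counts in AM132.

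Other miRNAs reported to act on sterol and lipoprotein genes were set beside miR-185-5p. Of 20 listed besides miR-185-5p, 18 were tested. In AM132 against AM608, 1 was higher, miR-26a-5p at 38525 ± 2946 in AM132 against 33634 ± 2462 CPM in AM608 (log2 fold change 0.20, edgeR adjusted p = 0.0445), and 1 was lower, miR-34a-5p at 27.2 ± 4.81 in AM132 against 45.8 ± 6.18 CPM in AM608 (SD, n = 8 each; −0.75, edgeR adjusted p = 0.000915), where edgeR called 12.4% of all tested miRNAs, 17 higher and 35 lower (8 higher and 83 lower with library totals). The list's median log2 fold change was 0.06, beside 0.05 over all tested miRNAs. With library totals the median of all tested miRNAs moved by −0.25, which is larger in size than the change of miR-26a-5p.

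In AM608 against RCD, 2 of the 18 were higher, miR-98-5p (0.32, edgeR adjusted p = 0.00123) and miR-34a-5p (0.52, edgeR adjusted p = 0.0105), and 1 was lower, miR-26a-5p (−0.24, edgeR adjusted p = 0.00483), where 28.7% of all tested miRNAs were called. The list's median was −0.04, beside −0.03 over all. In AM132 against RCD, miR-98-5p was higher (0.42, edgeR adjusted p = 5.74e-05) and miR-106b-5p lower (−0.44, edgeR adjusted p = 0.0345), with a median of −0.01 beside 0.03 over all and 34.2% of all tested miRNAs called.

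The nearest miRNA gene of Mir185 with counts was Mir1306, in Dgcr8, 43084 bases away. miR-1306-5p averaged 3.09 ± 0.50 CPM in AM132, 2.94 ± 0.86 CPM in AM608 and 2.31 ± 0.54 CPM in RCD (SD, n = 8 each), and passed no comparison. Its log2 fold change was 0.07 in AM132 against AM608 (edgeR adjusted p = 0.861), 0.35 in AM608 against RCD (edgeR adjusted p = 0.171) and 0.42 in AM132 against RCD (edgeR adjusted p = 0.0827). miR-1306-3p had 24 counts in AM132, 30 in AM608 and 23 in RCD over 8 libraries each, too few for the filter. No other miRNA gene was annotated within 50 kb of Mir674.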

How the data were processed

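The authors deposited raw read counts per mature miRNA name; 584 of the 1908 names had no count in any library. Per the labels' protocols, NEBNext small RNA libraries were made from 300 ng of RNA. FastQC is the only tool in the submitters' processing notes. For the aligner, build and counting rule: not given in the sources used here. The labels mention no molecular identifiers. Column names gave each sample's group and number. As a check for a library deposited more than once, the counts of 84 within-group pairs were compared by chi-square against counting error only; the smallest value was 30.2 per degree of freedom.

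The test was that of edgeR 4.0.16 under R 4.3.3 (robust quasi-likelihood fit, TMM, filterByExpr, group as the only term, all 24 libraries), with Benjamini-Hochberg adjustment over 421 miRNAs and a threshold of 0.05. CPM use TMM-scaled totals of tested miRNAs; log2 CPM add a prior count of 2 and arm ratios 0.5 to each count. The main arm is the one with more counts over all libraries. Exact permutation tests of arm ratios ran over 12870 assignments with scipy 1.17.1. Those of the correlations, 9 in all, ran over 40320 pairings by direct enumeration. Members, lists and marker miRNAs were chosen with earlier results of these data known. Named besides members are the 5 tested miRNAs with the highest r to each main arm, seed sharers, the 2 list members a direction with the smallest p among those called, and miRNAs within 50 kb of either gene; 6 precursors of the arm comparison were named after their values were seen. The labels do not tie each library to its own animal, so p-values measure the spread between these libraries, which may be technical. Transfer RNA fragments were not used. Alternatives are given in the closing section.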

Additional observations from a re-analysis of the deposited data

How the results depend on the processing

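With library totals, the log2 fold change in AM132 against AM608 was −0.14 for miR-674-5p and 1.06 for miR-674-3p, and 91 miRNAs were called in place of 52. The count was 87 with only the 2 groups in the fit. In AM132 against RCD, 94 miRNAs were called at a mean CPM of at least 10, 88 of them among the 144, and miR-185-3p was below that filter. The miR-185-5p call in AM132 against RCD was lost with library totals (0.26). miR-674-3p, not called there, was called with limma voom (0.36, limma adjusted p = 0.0356) and with AM132 library 8 and RCD library 3 both left out (0.39, edgeR adjusted p = 0.0107). With each library left out its value ran from 0.23 to 0.41, and with library totals it was 0.099 (edgeR adjusted p = 0.701). Over all 33 alternatives its adjusted p ran from 0.0049 to 0.701, both by edgeR. With library totals, r between the arms of miR-185 in AM132 was 0.90 (exact permutation, adjusted p = 0.00826), r between the main strands in RCD turned to 0.014, and r between the arms of miR-185 was −0.46 in AM608 and 0.006 in RCD. Without the 2 farthest libraries, r between the arms of miR-185 in RCD turned to −0.25. The CPM filter tests fewer miRNAs by construction; otherwise the cause was not tested.

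The numbers shared by the groups do not pair the libraries: 10 of 24 same-numbered pairs had a correlation of deviations above 0.1 (range −0.42 to 0.40), and 4 of 24 correlated best with their own number. With the replicate block, miR-185-5p in AM132 against RCD was 0.44 (edgeR adjusted p = 0.00418), miR-674-3p 0.34 (0.0761), and 132 miRNAs were called in place of 144. Of 587 values recomputed under alternatives, 574 were graded as kept. Most of these kept their direction and side of the threshold, or moved by less than the spread between libraries. Call counts were graded by a fixed fold limit around the main count. Likeness values and correlations without the 2 farthest libraries were graded by sign alone. Of the 5 miRNAs closest to a main strand, 2 or 3 were shared under each alternative. Counts of 20 to 82 limit the precision of miR-185-3p.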
